A study of Mus musculus with 16 samples.

Results

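The genes of the mitochondrial ribosomal proteins were followed across the red part of the gastrocnemius, a calf muscle, and visceral fat in 8 female mice. They were taken as the protein-coding genes whose symbols begin with Mrpl (large subunit) or Mrps (small subunit) and a number in the GENCODE M21 annotation of GRCm38. The rule found 78 genes among 55536 counted, 49 of the large and 29 of the small subunit as read from the symbol. A further 5 rows with such symbols were pseudogenes and were left out. Every mouse was given a running wheel over 5 weeks before 8 days of restricted movement in a small cage. The 4 controls carry the label Cre-Control, and the other 4 carry the label Conditional MusMyD88-/-, which the labels' protocols describe as a muscle knockout of MyD88, the adaptor of most Toll-like receptors. Each mouse gave a muscle and a fat library, so there were 16 libraries in 4 groups of 4. The sources used here give neither the promoter that drives Cre nor the age of the mice.

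Mitochondria hold their own ribosomes, which translate the few proteins encoded in mitochondrial DNA, all of them subunits of the respiratory chain and ATP synthase. The ribosomal RNAs come from mitochondrial DNA, whereas every protein of these ribosomes is encoded in the nucleus, made in the cytosol and imported. Of the 78 genes, 44 have a counterpart in bacterial ribosomes and 31 encode proteins found in mitochondrial ribosomes alone. The remaining 3, Mrps28, Mrps36 and Mrpl55, were not classed. Mrps36 keeps its ribosomal symbol although its product is now placed in the oxoglutarate dehydrogenase complex. Red gastrocnemius is known as the oxidative part of the calf muscle and as rich in mitochondria, and white adipocytes hold few. This is background, and the myosin genes of these libraries are given further on.

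Promoter windows of 300 bases, 250 before and 50 after the annotated start, were given by RefSeq (GRCm38.p6) for 69 of the 78 genes. Those not found were Mrpl4, Mrpl13, Mrpl15, Mrpl19, Mrpl38, Mrpl54, Mrps28, Mrps34 and Mrps35. For 50 genes a window's start lay within 100 bases of the GENCODE start. The following windows are shown because Mrpl22, Mrps21 and Mrpl42 had the largest tissue difference with a core motif of NRF-1, an ETS factor such as GABP, and YY1, in this order, among those 50 genes, factors known for driving nuclear genes of mitochondrial proteins. Mrps11 is shown because its window shares 141 bases with that of Mrpl46 on the opposite strand, and Mrps6 because it stood lowest in muscle relative to fat. They are printed 5′ to 3′ on the gene's strand, from chr11:58171414-58171713 (plus), chr3:95871465-95871764 (minus), chr10:95501900-95502199 (minus), chr7:78782881-78783180 (plus) and chr16:92058086-92058385 (plus). Capitals mark matches to the NRF-1 core GCGCATGC, the ETS core CCGGAAG or the YY1 core AAGATGGC on either strand.
Mrpl22: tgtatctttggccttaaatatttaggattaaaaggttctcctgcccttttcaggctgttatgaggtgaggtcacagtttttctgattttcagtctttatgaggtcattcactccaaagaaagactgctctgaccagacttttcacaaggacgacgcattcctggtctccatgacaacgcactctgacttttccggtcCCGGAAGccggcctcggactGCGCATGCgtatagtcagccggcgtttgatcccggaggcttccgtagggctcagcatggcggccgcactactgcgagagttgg
Mrps21: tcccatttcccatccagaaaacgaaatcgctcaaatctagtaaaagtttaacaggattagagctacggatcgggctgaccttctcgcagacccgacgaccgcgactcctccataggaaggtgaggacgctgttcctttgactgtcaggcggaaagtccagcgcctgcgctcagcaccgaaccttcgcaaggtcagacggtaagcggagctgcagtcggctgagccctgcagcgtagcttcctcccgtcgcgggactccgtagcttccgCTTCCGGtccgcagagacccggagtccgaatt
Mrpl42: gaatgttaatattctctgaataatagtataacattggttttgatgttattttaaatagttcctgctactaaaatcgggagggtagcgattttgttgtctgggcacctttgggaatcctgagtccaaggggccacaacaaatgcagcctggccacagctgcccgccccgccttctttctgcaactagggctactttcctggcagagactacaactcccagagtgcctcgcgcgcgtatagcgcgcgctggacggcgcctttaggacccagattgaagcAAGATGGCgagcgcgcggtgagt
Mrps11: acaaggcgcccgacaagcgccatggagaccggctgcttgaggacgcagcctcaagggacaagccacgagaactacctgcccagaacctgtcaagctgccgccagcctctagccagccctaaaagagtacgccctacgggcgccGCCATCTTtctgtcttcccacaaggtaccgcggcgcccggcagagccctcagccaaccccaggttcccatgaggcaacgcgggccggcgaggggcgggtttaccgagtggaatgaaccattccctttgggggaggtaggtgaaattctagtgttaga
Mrps6: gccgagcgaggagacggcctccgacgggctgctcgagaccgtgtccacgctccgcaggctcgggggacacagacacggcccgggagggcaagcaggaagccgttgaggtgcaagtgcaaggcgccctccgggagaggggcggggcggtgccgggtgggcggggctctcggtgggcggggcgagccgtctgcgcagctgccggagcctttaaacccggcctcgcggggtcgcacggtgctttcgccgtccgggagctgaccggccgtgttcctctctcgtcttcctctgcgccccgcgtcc

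The Mrpl22 window held the ETS core and then the NRF-1 core, both before the annotated start. Mrps21 held the ETS core on the opposite strand after its start, and Mrps11 the YY1 core on the opposite strand before its start. In Mrpl42 the YY1 core lay after the annotated start, and the Mrps6 window held none of the 3. Over the 69 genes with a window, 26 held the ETS core (37.7%), 12 the YY1 core (17.4%) and 8 the NRF-1 core (11.6%). Over 17492 protein-coding genes the shares were 12.9%, 3.57% and 3.94%. At least 1 of the 3 was found in 55.1% of the genes and in 18.7% of all protein-coding genes, at a median GC content of 58.0% and 56.3%. The NRF-1 core can overlap its own reverse complement, and each core was searched by itself. A match is a description of the letters and not a shown binding site. The tissue differences described further on can be set beside the motifs. The median log2 fold change of muscle over fat was 0.89 in 25 tested genes with the ETS core and 0.74 in 43 without it. It was 0.93 in 12 genes with and 0.87 in 56 without the YY1 core, and 0.72 in 8 with and 0.89 in 60 without the NRF-1 core.

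Many of these genes also started close to a gene on the opposite strand. A protein-coding gene on the opposite strand started within 1000 bases of the start of 33 of the 78 genes (42.31%), against 2386 of 22028 protein-coding genes (10.83%). Several partners serve mitochondria themselves. The starts of Mrps12 and Sars2, the mitochondrial seryl-tRNA synthetase, lay 172 bases apart. Those of Mrpl43 and Twnk, the mitochondrial DNA helicase, lay 779 bases apart. Mrpl36 and Ndufs6 started 29 bases apart and Mrpl47 and Ndufb5 615 bases apart, both partners being complex I subunits. The starts of Mrps11 and Mrpl46 lay 412 bases apart. These distances are not always gaps, since some pairs overlap. Exons of Mrps11 and Mrpl46 share 173 bases, those of Mrpl43 and Twnk 507 and those of Mrpl36 and Ndufs6 30. Exons of Mrpl47 also overlap Ndufb5. Of the 31 partners outside the family, 26 could be tested between the tissues, and 18 were higher and 2 lower in muscle, with a median log2 fold change of 0.58 on the TMM scale, beside 35.7% and 44.0% of all genes tested. Under total counts 6 were higher and 17 lower, with a median of -0.62, beside 11.2% and 79.9% of all genes. Exons of 8 of the 78 genes overlapped another gene on the same strand and exons of 28 a gene on the opposite strand. The sources used here do not say whether reads were counted by strand, so values of overlapping genes are uncertain.

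Library totals were 15203806 to 21747345 counts in muscle and 13242243 to 19114782 in fat. Levels are CPM, counts scaled to library size with TMM factors. The factors were 0.615 to 0.681 for muscle libraries and 1.34 to 1.89 for fat libraries, so scaling bears on every tissue difference. All 10 skeletal fibre markers were higher in muscle and all 8 adipocyte markers lower (edgeR). Of the myosin heavy chain genes among them, Myh4, of fast glycolytic fibres, was highest in muscle at 71470 to 107800 CPM. Myh1 was at 9485 to 13950 CPM, Myh2 at 3491 to 9221 CPM and the slow Myh7 at 1408 to 3176 CPM. The fibre types of the samples were not tested. Myd88 was at 3.32, 3.13, 5.21 and 4.47 CPM in control muscle and at 3.30, 3.04, 2.51 and 2.92 CPM in knockout muscle, a log2 difference of -0.47 (SE 0.20, edgeR adjusted p = 0.949), and at 9.68 to 11.7 CPM over all fat libraries. Among the fat libraries, that of control mouse 138 differed from the rest. Its summed smooth muscle markers were at 11070 CPM, against 302.7 to 692.9 CPM in the other 7. Its adipocyte markers were at 3874 CPM against 16420 to 19800 CPM. Its bladder and mesothelial markers summed to 1078 CPM against 23.8 to 102.0 CPM, through the uroplakin genes. Upk1a, Upk1b, Upk2 and Upk3a were at 290.4, 389.5, 66.1 and 231.0 CPM there, and Upk3b at 87.2 against 9.65 to 64.9 CPM. The mesothelial marker Msln was not raised, at 13.5 CPM against 3.09 to 16.6 CPM.

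The tissues were compared first. On the TMM scale most mitochondrial ribosomal protein genes were higher in muscle. Of the 77 genes that could be tested, 66 were higher and 2 lower in muscle, beside 35.7% and 44.0% of all 17084 genes tested (edgeR quasi-likelihood test, Benjamini-Hochberg adjusted p under 0.05, all 16 libraries). Their median log2 fold change was 0.89, and that of all genes was -0.16. The direction depends on the scale. With total counts as the scale, 13 genes were higher and 48 lower in muscle, beside 11.2% and 79.9% of all genes, with medians of -0.31 for these genes and -1.36 for all. Relative to the median of all genes tested, 74 of the 77 lay above it on the TMM scale and 75 on the total-count scale, and the distance between the medians was 1.04 and 1.05. In bulk tissue, RNA per cell and the number of cells of a type cannot be told apart.

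**Figure D1:**
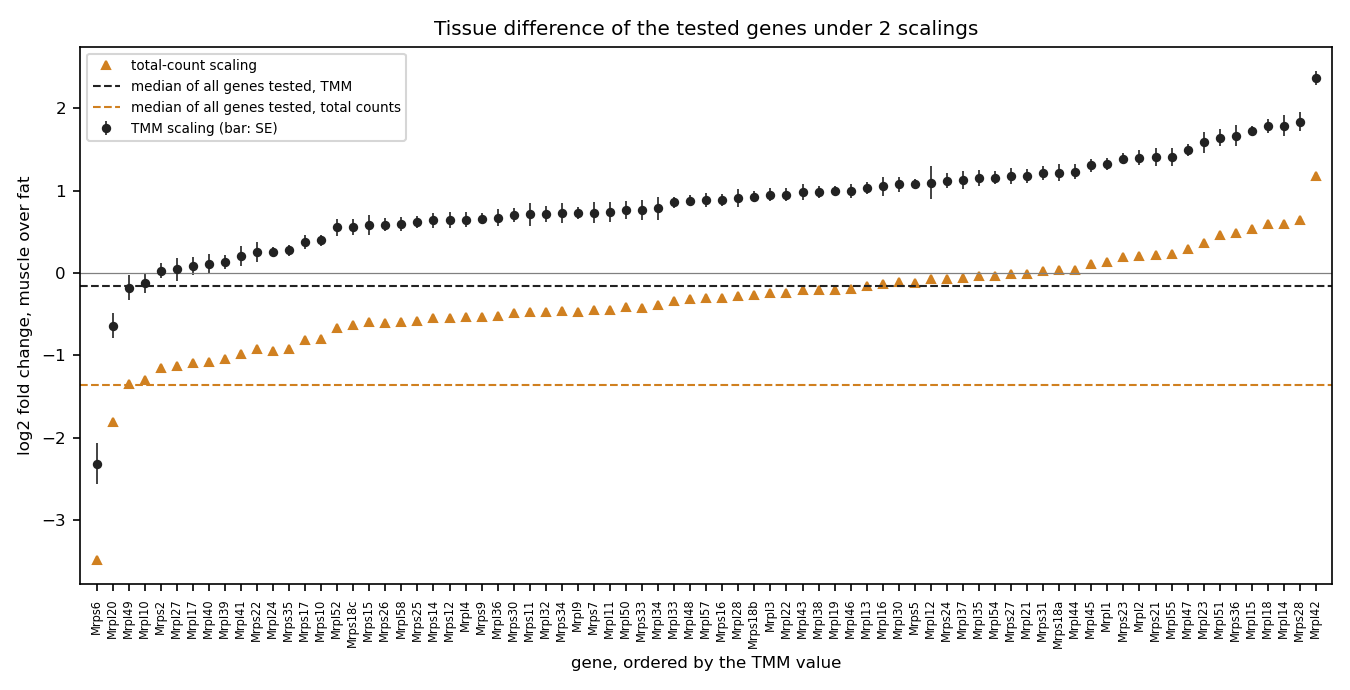
Log2 fold change of muscle over fat (vertical axis) for the 77 genes tested (horizontal axis), as points with SE bars under TMM scaling and as triangles under total counts; dashed lines give the median of all genes tested on each scale. Mrpl42 is above 0 on both scales and Mrps6 and Mrpl20 are below 0 on both, while most genes between them are above 0 under TMM and below 0 under total counts.

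The difference was also large in size for many. Against a fold of 1.5, 45 genes passed as higher and 1 as lower in muscle on the TMM scale, beside 22.5% and 31.1% of all genes (edgeR glmTreat). In 61 genes all 8 muscle libraries lay above all 8 fat libraries, and in 1 gene below, beside 25.2% and 26.9% of all genes tested. In 65 of the 78, again on the TMM scale, the muscle library lay above the fat library of the same mouse in 8 of 8 mice. The share of all genes was not computed for this count, so it is a description only. Leaving out mouse 138 gave 67 higher and 4 lower of 78 tested, beside 37.2% and 44.1% of all genes. The added lower ones were Mrpl10 at -0.22 and Mrpl49 at -0.31.

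Both subunits were mostly higher in muscle on the TMM scale. Of the large subunit's 48 genes tested 40 were higher and 1 lower, with a median log2 fold change of 0.97, and of the 29 small-subunit genes 26 were higher and 1 lower, with a median of 0.71. Under total counts these were 9 higher and 28 lower, and 4 higher and 20 lower. Genes with a bacterial counterpart numbered 38 higher and 2 lower of 44, at a median of 0.82. Those found in mitochondrial ribosomes alone numbered 25 higher and 0 lower of 30, at a median of 0.88. These counts are on the TMM scale, and under total counts 7 of the first were higher and 28 lower, and 3 of the second higher and 20 lower. The untested gene, Mrpl53, reached at most 1.14 CPM in any library, and 88.0% of its exon bases overlap Gm42688 on the same strand.

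**Figure D2:**
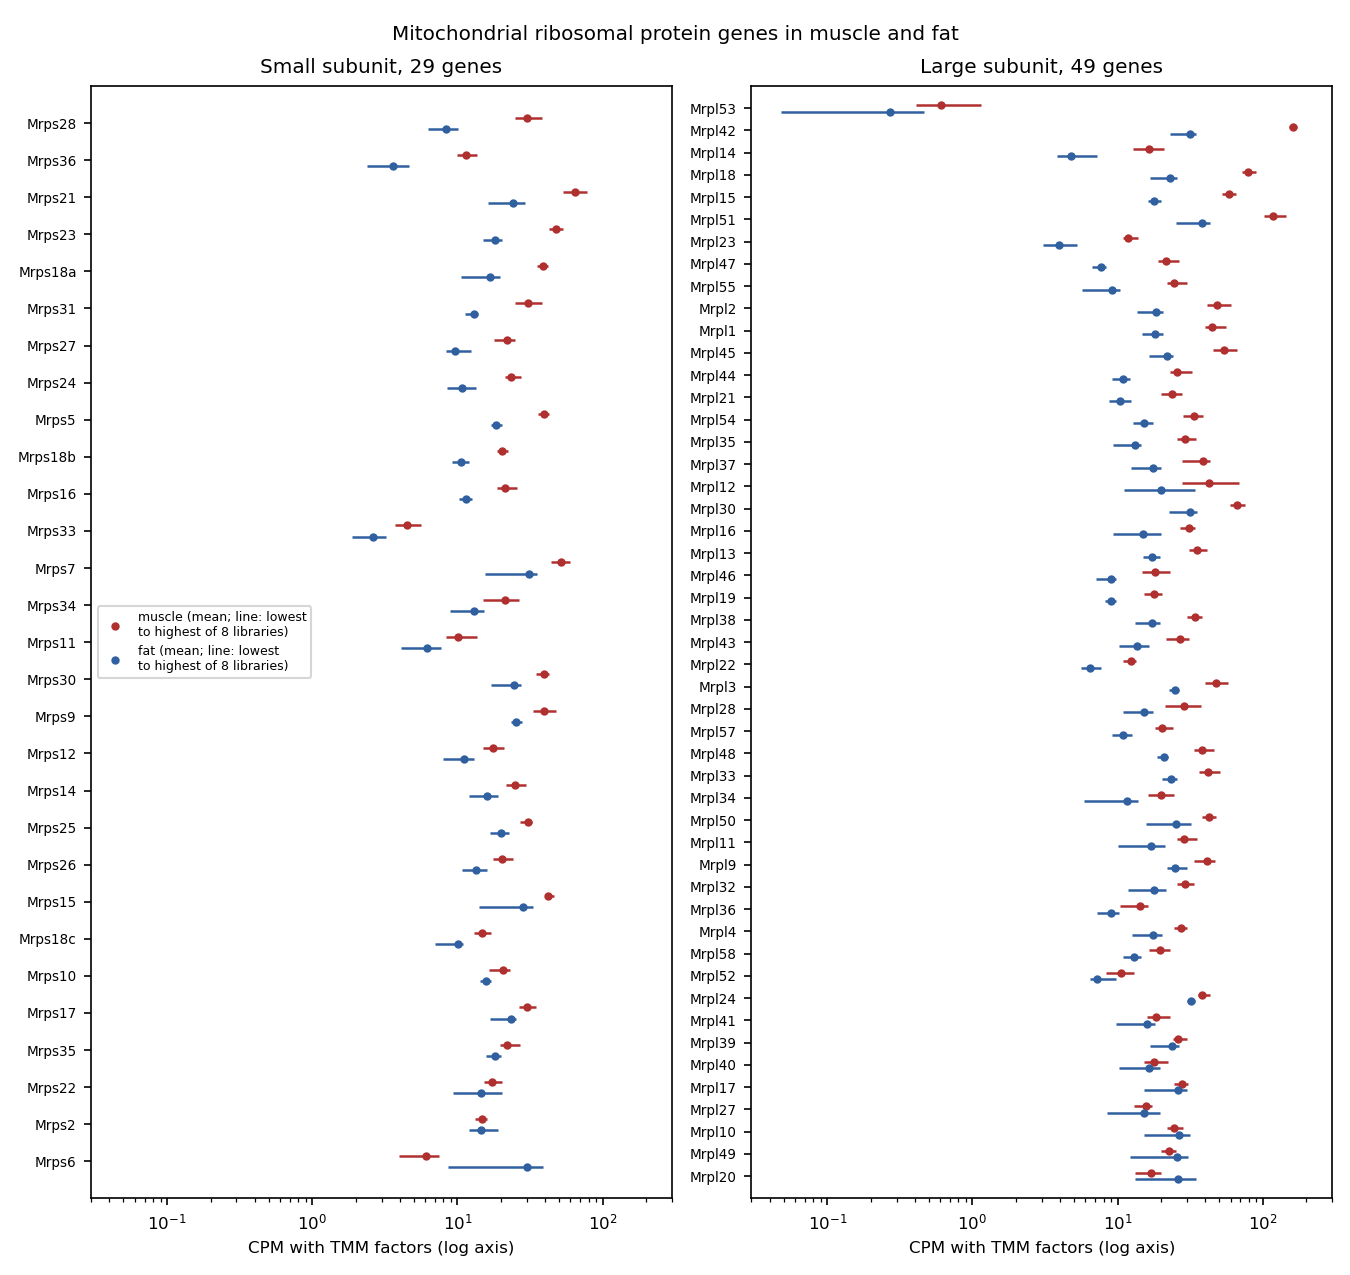
Level of each gene in CPM with TMM factors (horizontal log axis) in muscle and fat, with the mean as a point and the range over 8 libraries as a line, for small-subunit (left) and large-subunit genes (right), ordered by tissue difference with the untested Mrpl53 at the top. Mrpl42 and Mrpl51 reach the highest levels in muscle, with all muscle libraries above 101 CPM, and Mrps6 is the 1 gene with all fat libraries above all muscle libraries.

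Mrpl42, a protein of the large subunit with no bacterial counterpart, had the largest difference. Its gene (ENSMUSG00000062981, chromosome 10, 95480805 to 95501940) ranged from 151.4 to 171.7 CPM in muscle with a median of 164.5, and from 22.9 to 34.9 CPM in fat with a median of 33.4. The ranges are far apart, and the log2 fold change was 2.36 (SE 0.08, edgeR adjusted p = 8.37e-13), or 1.17 under total counts. Within the family it took 6.23 to 6.76% of the summed CPM in each muscle library and 2.24 to 2.61% in each fat library, a share that does not depend on the scale. Mrpl51, also found in mitochondrial ribosomes alone, ranged from 101.9 to 145.4 CPM in muscle and from 25.3 to 43.3 CPM in fat, with medians of 115.8 and 38.4 (log2 1.64, SE 0.10).

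Other large-subunit genes with a bacterial counterpart followed. Mrpl18 ranged from 71.9 to 90.4 CPM in muscle (median 79.6) and from 16.7 to 25.6 CPM in fat (median 23.7), and its log2 fold change was 1.78 (SE 0.08). Mrpl15 ranged from 52.5 to 65.9 CPM (median 57.6) against 16.2 to 19.96 CPM (median 17.9), with a log2 fold change of 1.72 (SE 0.07). Both stood well apart between the tissues. Mrpl14, at lower levels, ranged from 12.8 to 21.0 CPM in muscle and from 3.85 to 7.20 CPM in fat (log2 1.79, SE 0.13), and Mrpl23, which sits at the exit tunnel, from 10.9 to 13.7 CPM and from 3.04 to 5.22 CPM (log2 1.58, SE 0.13).

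In the small subunit, Mrps28 led with 24.8 to 38.4 CPM in muscle (median 29.5) against 6.26 to 10.2 CPM in fat (median 8.55), a log2 fold change of 1.84 (SE 0.11). Mrps36 ranged from 9.86 to 13.7 CPM against 2.40 to 4.64 CPM (log2 1.67, SE 0.13). Neither overlapped between the tissues. Together with Mrpl42, Mrpl51, Mrpl18, Mrpl15, Mrpl14 and Mrpl23 they belong to 13 genes that were higher in muscle under all 5 scalings tried. A scaling shifts all genes by nearly the same amount, so the 5 are not separate tests. The 13 are those higher under total counts, beside 11.2% of all genes. The others of the 13 were Mrps21, Mrps23, Mrpl2, Mrpl47 and Mrpl55.

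Mrps6 and Mrpl20 ran the other way and were lower in muscle under all 5 scalings. They are the 2 genes lower under TMM, beside 44.0% of all genes. Mrps6, a small-subunit protein with a bacterial counterpart (ENSMUSG00000039680, chromosome 16, 92058270 to 92112227), ranged from 3.94 to 7.44 CPM in muscle with a median of 6.28. In fat it ranged from 8.62 to 38.7 CPM with a median of 32.1, and the lowest fat value belonged to mouse 138. The log2 fold change was -2.32 (SE 0.25, edgeR adjusted p = 4.48e-07), and -2.47 without mouse 138. Of its exon bases, 30.3% overlap Slc5a3, a myo-inositol transporter gene, and Gm49711 on the same strand, and Slc5a3 itself was at 19.9 to 30.5 CPM in muscle and 59.0 to 382.3 CPM in fat, so reads of the 2 genes cannot be told apart there. Mrpl20, a large-subunit protein needed early in assembly of the bacterial ribosome, ranged from 13.2 to 19.9 CPM in muscle and from 13.2 to 34.4 CPM in fat, with medians of 17.0 and 27.0. Its ranges overlapped at the fat library of mouse 138, and the log2 fold change was -0.64 (SE 0.15, edgeR adjusted p = 0.0012), which did not pass against a fold of 1.5.

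Genes whose products have named roles lay between these. Mrpl12, which forms the stalk of the large subunit with Mrpl10 and Mrpl11 and also binds the mitochondrial RNA polymerase, had the widest spread of the control muscle libraries. It was at 35.5, 36.8, 43.5 and 68.7 CPM there and at 27.7, 41.7, 42.1 and 42.6 CPM in knockout muscle, and ranged from 11.1 to 33.9 CPM in fat. Its log2 fold change was 1.10 (SE 0.20), or -0.08 under total counts. Mrpl11 had 0.74 (SE 0.12) under TMM and -0.45 under total counts. Mrpl10, at 21.8 to 28.4 CPM in muscle and 15.1 to 31.3 CPM in fat, did not pass the test, with -0.12 (SE 0.12) and an edgeR adjusted p of 0.363.

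The decoding centre and the exchangeable S18 proteins were next. Mrps12, of the decoding centre, ranged from 15.0 to 20.9 CPM in muscle and 8.01 to 13.1 CPM in fat, with a log2 fold change of 0.64 (SE 0.10) that became -0.55 under total counts. Mrps18a, Mrps18b and Mrps18c are related proteins that sit at different places, the first in the large subunit in spite of its symbol. Mrps18a was 2.33-fold higher in muscle under TMM, with a log2 value of 0.03 under total counts. Mrps18b and Mrps18c had log2 fold changes of 0.93 and 0.56 (SE 0.07 and 0.09) under TMM, and -0.27 and -0.63 under total counts. Per kilobase of merged exon, their muscle levels were 10.5 ± 0.85, 9.72 ± 0.74 and 13.8 ± 1.42 CPM for Mrps18a, Mrps18b and Mrps18c (SD, n = 8). With the longest transcript as length they were 17.5, 18.8 and 18.1, so their order depends on the length used. Exon bases of Mrps18c overlap Gm43511 on the same strand over 23.2% of its length.

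Proteins that mitochondrial ribosomes gained differed too. Mrpl45, which anchors the ribosome near the inner membrane, had a log2 fold change of 1.31 (SE 0.08) and ranged from 45.6 to 66.0 CPM in muscle and 16.5 to 24.02 CPM in fat. Mrpl44, which has a fold like that of ribonuclease III, had 1.23 (SE 0.09). Mrpl58, a peptidyl-tRNA hydrolase that rescues stalled ribosomes, had 0.59 (SE 0.08), and Mrps30, a protein placed in the large subunit in spite of its symbol, 0.70 (SE 0.08). Mrpl33, a small bacterial-type protein, had 0.86 (SE 0.07). Under total counts these values were 0.11, 0.04, -0.60, -0.48 and -0.34 in the same order.

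Levels between genes were compared per length, as CPM per kilobase of merged exon. The median gene was at 10.4 in muscle and 5.80 in fat. In muscle Mrps21 was highest at 87.2 ± 10.9 (SD, n = 8), followed by Mrpl18 at 57.0 ± 4.09, Mrpl42 at 44.0 ± 2.42, Mrpl2 at 41.3 ± 5.11 and Mrpl54 at 41.0 ± 3.68. The last 3 lay within their spread of each other. In fat Mrps21 was again highest at 32.9 ± 5.46, followed by Mrps6 at 19.7 ± 6.19, Mrpl34 at 19.0 ± 4.0, Mrpl54 at 18.4 ± 1.87 and Mrpl41 at 17.9 ± 3.15, of which the last 4 did not stand apart from each other. Mrpl53, Mrpl23 and Mrps33 were among the 5 lowest in both tissues, at 0.77, 2.42 and 2.69 CPM per kilobase in muscle and 0.34, 0.81 and 1.58 in fat. Mrps35 and Mrps10 completed the low end in muscle at 2.55 and 2.56, and Mrpl19 and Mrpl47 in fat at 1.65 and 1.73. With the longest transcript as length, the 5 highest in muscle and the 5 lowest in fat were the same genes, and 3 of 5 were shared at each of the other ends.

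Summed over the family, the TMM level was 2283 to 2753 CPM in muscle and 976.4 to 1440 CPM in fat, and 1287 to 1440 CPM without mouse 138. As a share of all counts the order was the other way with some overlap, at 0.150 to 0.187% in muscle and 0.181 to 0.213% in fat. Ratios taken within a library need no scaling. Per 100 counts of nuclear-encoded oxidative phosphorylation subunits, the family had 11.1 to 12.9 counts in muscle and 19.3 to 24.1 in fat, with no overlap. Per 100 counts of cytosolic ribosomal proteins it had 26.9 to 31.2 in muscle and 21.6 to 29.6 in the fat of 7 mice, and 10.0 in the fat of mouse 138. The small subunit took 30.9 to 31.9% of the family's counts in muscle and 34.3 to 36.1% in fat, again with no overlap. Single genes weigh in this gap. Mrps6, whose reads overlap Slc5a3, took a median of 0.25% in muscle and 2.42% in fat, and Mrpl42 6.647% and 2.375%. Subunits were read from the symbols, so Mrps18a, Mrps30 and Mrps36 count as small here. How far the other genes share in the gap was not tested.

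**Figure D3:**
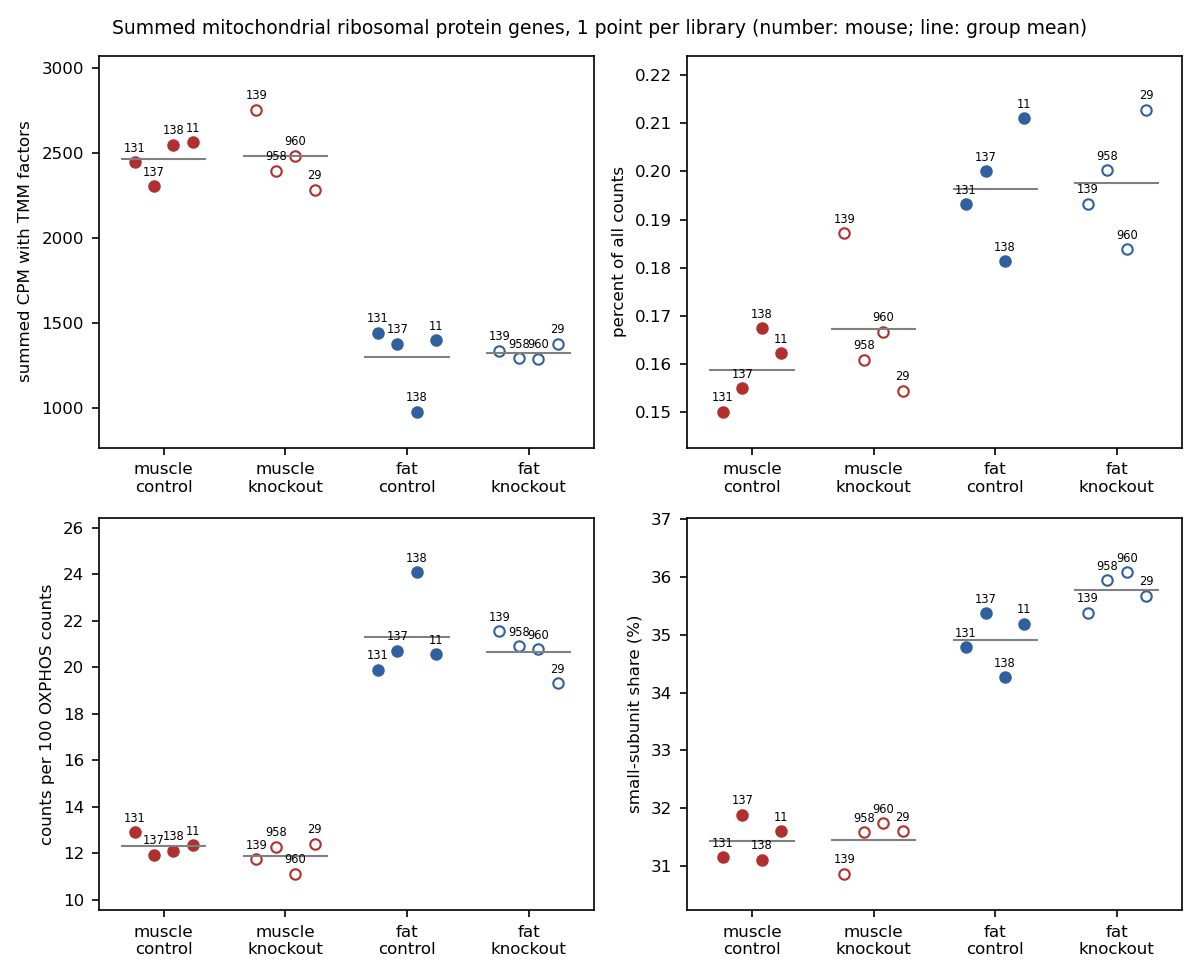
Summed counts of the 78 genes, 1 point per library with its mouse number and the group mean as a line (red, muscle; blue, fat; filled, control; open, knockout), as CPM with TMM factors, as a percentage of all counts, per 100 counts of nuclear-encoded oxidative phosphorylation (OXPHOS) subunits, and as the small subunit's share. The vertical axes do not start at 0, and the tissues separate in opposite directions in the panels of summed CPM and of counts per 100 OXPHOS counts.

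Other genes of mitochondrial translation were compared between the tissues by lists. Of the 5 mitochondrial ribosomal proteins with other symbols all were higher in muscle, with a median log2 fold change of 1.08, led by Chchd1 at 2.13 (SE 0.10), Gadd45gip1 at 1.43 (SE 0.08) and Ptcd3 at 1.08 (SE 0.09). Of 24 assembly genes 19 were higher and 1 lower (median 0.71). Fastkd2, an RNA-binding protein of large-subunit assembly, had 1.71 (SE 0.08) and Rcc1l 1.62 (SE 0.09). Of 15 translation factors 13 were higher and 1 lower (median 0.78), among them Taco1, the activator of Cox1 translation, at 2.08 (SE 0.12), the elongation factor Gfm1 at 1.85 (SE 0.10) and Lrpprc, which binds mitochondrial messenger RNA, at 1.61 (SE 0.06). Of the 17 mitochondrial aminoacyl-tRNA synthetases 10 were higher and 0 lower (median 0.25), with Sars2 at 1.39 (SE 0.10) and Mars2 at 1.07 (SE 0.07) among them. Under total counts the counts higher and lower in these 4 lists were 2 and 2, 4 and 16, 5 and 8, and 0 and 14.

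**Figure D4:**
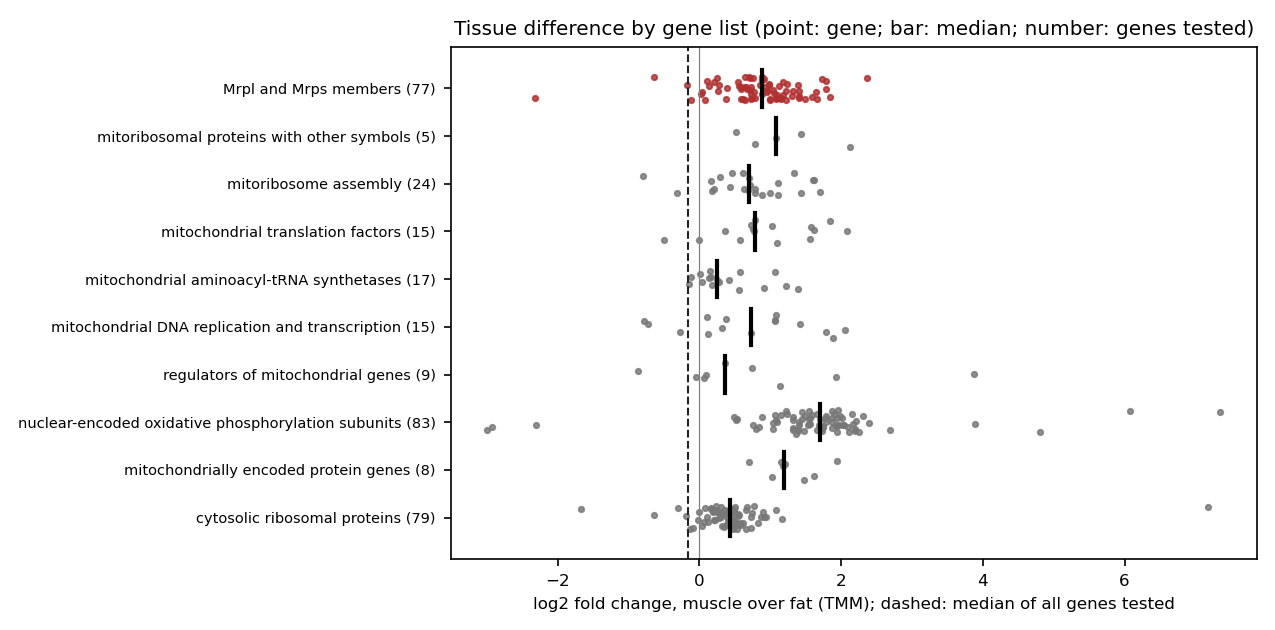
Log2 fold change of muscle over fat under TMM scaling (horizontal axis) for each gene tested in the family and in 9 lists (rows); bars are medians and the dashed line is the median of all genes tested. The family's median of 0.89 lies below that of the nuclear-encoded oxidative phosphorylation subunits (1.70) and above that of the cytosolic ribosomal proteins (0.43); under total counts the 3 medians were -0.31, 0.51 and -0.80.

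Upstream and downstream genes differed as well. Of 15 genes of mitochondrial DNA replication and transcription 10 were higher and 2 lower in muscle (median 0.73), with Mterf2 at 2.05 (SE 0.14), Twnk at 1.89 (SE 0.12), the packaging factor Tfam at 1.78 (SE 0.06) and the RNA polymerase gene Polrmt at 1.06 (SE 0.11). Among 9 regulators 5 were higher and 1 lower. The coactivator gene Ppargc1a ranged from 70.7 to 128.4 CPM in muscle and 4.03 to 7.48 CPM in fat (log2 3.88, SE 0.13), its relative Ppargc1b had 1.14 (SE 0.14) and the nuclear receptor gene Esrra 1.93 (SE 0.07). Of the genes of the factors whose motifs were searched for, Gabpa had 0.74 (SE 0.06) and Nrf1 0.36 (SE 0.07). Yy1, at 56.5 to 66.6 CPM in muscle and 54.6 to 62.7 CPM in fat, did not pass, with 0.07 (SE 0.05, edgeR adjusted p = 0.239). Of the 83 tested nuclear-encoded oxidative phosphorylation subunits 80 were higher and 3 lower in muscle, and muscle isoforms led, with Cox6a2 at 7.35 (SE 0.39), Cox7a1 at 6.08 (SE 0.24) and Cox8b at 4.81 (SE 0.25). Of the 13 mitochondrially encoded protein genes only 8 passed the count filter, so the rest are not covered. All 8 tested were higher (median 1.19), among them mt-Nd1 at 1.94 (SE 0.21), mt-Co1 at 1.62 (SE 0.23) and mt-Nd6 at 1.48 (SE 0.26). Of the 79 cytosolic ribosomal protein genes 52 were higher and 3 lower, or 69 and 3 without mouse 138, with the muscle paralog Rpl3l at 7.17 (SE 0.36), Rpl3 at -1.67 (SE 0.19) and Rps2 at 1.17 (SE 0.09). Under total counts the counts higher and lower in these 5 lists were 4 and 8, 2 and 6, 58 and 10, 2 and 0, and 1 and 73. The mitochondrial ribosomal RNAs were depleted before sequencing, and mt-Rnr2 ranged from 8980 to 67720 CPM among muscle libraries, so no level is read from mt-Rnr1 or mt-Rnr2.

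Knockouts and controls were then compared within muscle, the targeted tissue. None of the 77 genes tested passed (edgeR, adjusted p under 0.05), beside 2 of 14183 genes or 0.0141%, and none had an unadjusted p under 0.05, beside 5.04% of all genes. DESeq2 and limma voom called none either, with 0 and 1 at an unadjusted p under 0.05. The median log2 fold change was 0.01, the 77 values ranged from -0.26 to 0.24, and 42 were positive. In no gene did the 4 knockouts and 4 controls separate, beside 3.12% of all genes. The largest and smallest summed levels both belonged to knockouts, 2753 CPM in mouse 139 and 2283 CPM in mouse 29, and the control libraries averaged 2464 ± 119 CPM against 2478 ± 201 CPM in the knockouts (SD, n = 4). Without mouse 139 the median difference was -0.06 and 23 values were positive, and no gene passed.

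The 6 genes with the smallest p in muscle had values of 0.0530 to 0.155. Mrpl20 was at 19.9, 16.3, 17.7 and 19.0 CPM in controls and 18.3, 13.2, 16.3 and 14.6 CPM in knockouts, a log2 difference of -0.24 (SE 0.11, exact permutation p = 0.114). Mrpl28, a large-subunit protein, was at 25.2, 21.2, 29.4 and 29.4 CPM in controls and 37.6, 30.8, 30.7 and 26.4 CPM in knockouts, a difference of 0.24 (SE 0.12, exact permutation p = 0.143). In both the groups overlapped in 1 or more libraries. Mrpl21, Mrps36, Mrps18b and Mrpl50 had differences of -0.19, 0.22, -0.15 and -0.12, each with an edgeR adjusted p of 0.949. With 4 mice against 4 the exact test cannot go below 0.0286. Ppargc1a was at 92.9, 128.4, 106.4 and 108.3 CPM in control muscle and 81.8, 70.7, 70.7 and 70.7 CPM in knockout muscle, which do not overlap, and its log2 difference of -0.58 (SE 0.10) did not pass over all genes (edgeR adjusted p = 0.128). In the 9 other lists on mitochondria and ribosomes no gene passed in muscle (edgeR), with 5 at an unadjusted p under 0.05. All 8 macrophage markers were positive in knockout muscle with a median of 0.43, at sums of 78.8 to 122.6 CPM for the controls against 120.9 to 163.1 CPM for the knockouts, and their part in these values was not tested.

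In fat, outside the targeted tissue, none of the 77 passed either, beside 1 of 16323 genes or 0.00613% (edgeR). An unadjusted p under 0.05 was reached by 1 gene higher and 1 lower in knockouts, beside 7.99% of all genes, and DESeq2 and limma voom gave the same counts. The median was 0.02 and 45 of 77 values were positive. In 3 genes the knockouts lay above all controls and in 1 below, beside 6.32% of all genes, counts that change without mouse 138 as given further on. The large-subunit gene Mrpl9 was at 26.6, 26.0, 29.9 and 24.2 CPM in controls and 23.4, 22.1, 22.5 and 23.8 CPM in knockouts, a log2 difference of -0.22 (SE 0.09, edgeR quasi-likelihood p = 0.0354, adjusted p = 0.619, exact permutation p = 0.0286). Mrps35, found in mitochondrial ribosomes alone, was at 18.2, 15.9, 17.5 and 16.5 CPM in controls and 18.6, 19.7, 19.3 and 20.1 CPM in knockouts, a difference of 0.19 (SE 0.08, edgeR adjusted p = 0.619). Mrps9 and Mrpl45 had 0.13 and 0.19 (edgeR adjusted p = 0.637 and 0.640), and in each of these 4 genes the groups did not overlap, with an exact permutation p of 0.0286, the smallest that 4 against 4 allows. Mrps34 and Mrpl19 followed at 0.20 and -0.12, with overlapping groups. Exon bases of Mrps34 overlap Nme3 on the same strand (37.0%) and Mapk8ip3 on the opposite strand (63.4%). Those of Mrpl19 overlap Gcfc2 on the opposite strand (36.0%), so both values are uncertain.

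The fat result moved with 1 control library. That of mouse 138 was the lowest of all 8 fat libraries for 59 of the 78 genes, and its summed level was 976.4 CPM against 1375 to 1440 CPM in the other 3 controls and 1287 to 1376 CPM in the knockouts. Without mouse 138 the median was -0.06 and 18 of 77 values were positive. Then 1 gene was higher and 10 were lower in knockouts at an unadjusted p under 0.05 (edgeR), beside 7.85% and 8.72% of all genes, and none passed after adjustment. The 4 knockouts then lay above the 3 controls in 3 genes and below them in 11, beside 7.48% and 8.44% of all genes. The 11 were Mrpl9 and the 10 genes lower at an unadjusted p under 0.05. These 10 were Mrps22, Mrpl20, Mrps6, Mrpl16, Mrpl28, Mrpl10, Mrpl49, Mrps36, Mrpl40 and Mrpl41, and Mrps35 was the higher one. DESeq2 without mouse 138 called 1 gene, Mrps22, lower in knockouts, beside 2.04% of all genes, and limma voom called none. Mrps22, a small-subunit protein found in mitochondrial ribosomes alone, averaged 18.1 ± 2.00 CPM in the 3 other controls and 13.2 ± 0.52 CPM in the 4 knockouts (SD), a log2 difference of -0.46 (SE 0.09, edgeR adjusted p = 0.140; DESeq2 adjusted p = 0.0127).

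Markers of other cell types were read in the same fat libraries, and none passed the genotype test (edgeR). All 10 skeletal fibre markers were positive in knockouts with a median of 0.78, their summed level ranging from 472.1 to 1919 CPM among the 4 controls and from 339.5 to 3876 CPM among the 4 knockouts, with overlap. Without mouse 138 their median was 1.06. All 8 macrophage markers were negative with a median of -0.22. Their sums overlapped, at 368.3 to 681.5 CPM for controls and 336.7 to 646.1 CPM for knockouts. Of the 8 adipocyte markers 7 were positive with a median of 0.25, at sums of 3874 to 18820 CPM and 17360 to 19800 CPM. The lowest adipocyte sum is that of mouse 138, and the 3 other controls had 16420 to 18820 CPM. All 6 smooth muscle markers were negative with a median of -2.48, their sum ranging from 302.7 to 11070 CPM for controls against 335.9 to 692.9 CPM for knockouts. This direction rests on mouse 138, and without it 5 of the 6 were positive with a median of 0.18, at sums of 302.7 to 471.8 CPM in the 3 other controls. All 6 proliferation markers were negative with a median of -1.03, at sums of 32.4 to 58.0 CPM and 16.6 to 28.0 CPM, which do not overlap. The bladder marker Upk3a stood at 231.0 CPM in the library of mouse 138 and at 1.05 CPM or less in the other 7. Of the 79 cytosolic ribosomal protein genes 77 were negative with a median of -0.27, and without mouse 138 45 were negative with a median of -0.01. The part of these cells in the result was not tested. The small subunit's share of the family's counts was 34.78, 35.37, 34.27 and 35.19% in controls and 35.38, 35.94, 36.08 and 35.67% in knockouts. These do not overlap, but control mouse 137 and knockout mouse 139 lie side by side.

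**Figure D5:**
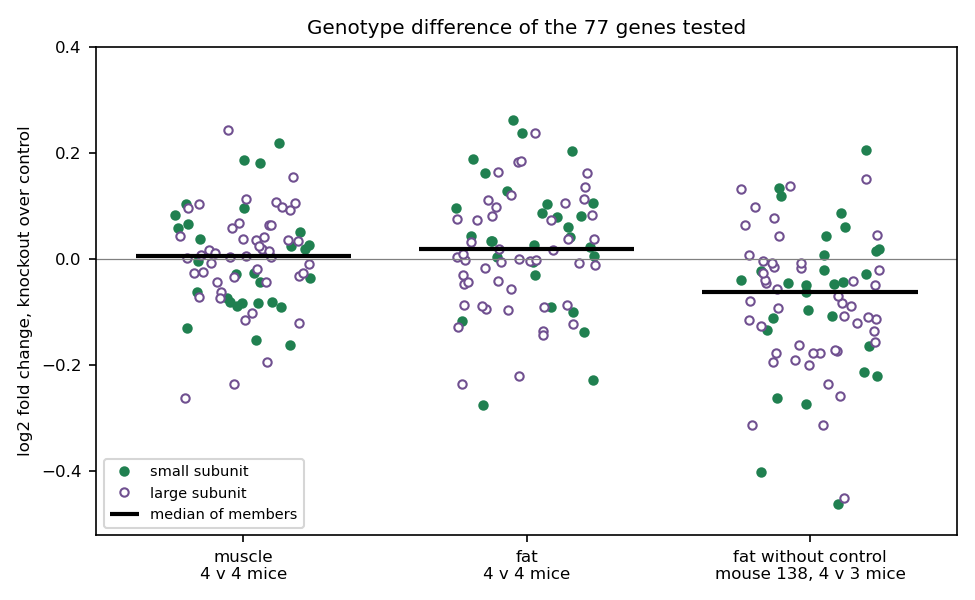
Log2 fold change of knockout over control (vertical axis) for the 77 genes tested in muscle, in fat, and in fat without control mouse 138 (filled, small subunit; open, large subunit), with the median as a line. The medians are 0.01, 0.02 and -0.06, and no gene passed the edgeR test in any of the 3.

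The genotype differences in muscle and fat were set against each other as an interaction over all 16 libraries. None of the 77 genes passed (edgeR), beside 0.0% of all 17084 genes, and none reached an unadjusted p under 0.05, beside 7.19%. DESeq2 and limma voom gave 0 on both counts. The median was -0.02 and 32 of 77 values were positive. Without mouse 138 the median was 0.09, and 5 genes reached an unadjusted p under 0.05. The share of all genes in that fit is not given here, and with all mice it was 7.19%. The 5 are therefore not read as a result. The smallest p belonged to Mrps36, whose difference of 0.46 (SE 0.25, edgeR adjusted p = 0.707) comes from 0.22 in muscle and -0.23 in fat. Mrpl28 and Mrpl9 followed at 0.35 and 0.20, then Mrps10 at -0.17, Mrps35 at -0.16 and Mrpl52 at 0.24.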

How the data were processed

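RNA of 16 libraries was sequenced after depletion of ribosomal RNA, per the labels' protocols. The authors deposited raw counts of reads per Ensembl gene, with no scaling. The submitters' processing notes name STAR 2.7.0f, featureCounts 1.6.3, DESeq2 1.22.2 and GRCm38. The sources used here give no strand setting, multi-mapping rule or annotation release. Symbols, classes and coordinates came from GENCODE M21 by identifier, and all 55536 matched.

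The genes studied, the gene lists and the rule for named genes were chosen with earlier results of these data known. Named were up to 8 genes per direction past the threshold by tissue, 6 with the smallest p by genotype, the 5 highest and lowest per length, genes with set roles, and up to 3 per list. Mrps22, Mrpl16, Mrpl40, Mrpl49, Mrps23, Mrpl55, Mrpl22, Mrps11, Yy1, Upk3a, Slc5a3 and the partner genes were chosen after their values were seen.

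Counts were tested with the quasi-likelihood test of edgeR 4.0.16 in R 4.3.3 (TMM, filterByExpr, robust), with Benjamini-Hochberg adjustment over all genes tested and a threshold of 0.05. Single genes were also given a two-sided exact permutation test on log2(CPM + 0.5) over 70 assignments. Both libraries of a mouse carry its number, so the number pairs the tissues. Deviations of paired libraries from their group means correlated at -0.02 to 0.04 in controls and 0.10 to 0.17 in knockouts over 17084 genes. Alternatives were 4 other scalings, 2 filters, DESeq2 1.42.0, limma 3.58.1 voom, a replicate block, omitted mice, a fold limit and another gene length. DESeq2 and voom without mouse 138 were added after seeing the data. The procedure was also run on simulated counts, drawn from an expression profile shared by all libraries with set changes in some genes. They held no broad tissue difference and no deviant library, so they do not bear on scaling or on mouse 138. No 2 libraries agreed within sampling noise. Separate animals underlie the 4 libraries of a group, and the SDs and SEs given include the spread between animals.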

Additional observations from a re-analysis of the deposited data

Results flagged for a closer look

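In groups of 4 libraries, a value was singled out when its gap to the nearest other library exceeded Dixon's 95% critical share of the group's range. Of 176 groups tested, 15 held such a value (8.52%), and chance alone gives about 1 in 20.

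The fat library of control mouse 138 held 8 of them, all low. They were Mrpl18 at 16.7 CPM against 23.96 to 24.83 in the other 3 controls, Mrps6 at 8.62 against 35.6 to 38.7, Mrpl28 at 10.9 against 17.3 to 17.7 and Mrpl45 at 16.5 against 21.4 to 21.9. Mrps33 was at 1.87 CPM against 2.52 to 2.65, Mrpl41 at 9.68 against 17.7 to 18.1 and Mrps18c at 7.03 against 10.6 to 10.7. The summed level was 976.4 CPM against 1375 to 1440. The same library held the smooth muscle and bladder markers described above, whose part in these values was not tested.

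The muscle library of knockout mouse 139 held 3, high for Mrpl51 at 145.4 CPM against 108.0 to 113.7 and for Mrpl44 at 32.3 against 23.6 to 24.5, and low for Mrpl12 at 27.7 against 41.7 to 42.6. That of control mouse 137 was low for Mrpl18 at 76.4 CPM against 81.5 to 82.4, for Mrps18b at 19.1 against 21.9 to 22.4 and for Mrpl54 at 28.4 against 34.3 to 35.5. The fat library of knockout mouse 29 was high for Mrpl2 at 20.2 CPM against 17.7 to 18.1.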

How the results depend on the processing

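The tissue result depends on scaling. Under TMM, genes higher and lower in muscle numbered 66 and 2 (median log2 fold change 0.885). Under total counts they numbered 13 and 48 (median -0.309). Under totals without the 10 most abundant genes they numbered 41 and 15 (median 0.233), beside 18.9% and 66.0% of all genes (median -0.813). The distance from the median of all genes was 1.04, 1.05 and 1.05 in this order. Under total counts the log2 fold change reversed to -0.45 for Mrpl11, -0.08 for Mrpl12, -0.55 for Mrps12, -0.27 for Mrps18b, -0.63 for Mrps18c, -0.60 for Mrpl58, -0.48 for Mrps30 and -0.34 for Mrpl33. Under totals without the 10 most abundant genes it was -0.01 for Mrps12, -0.09 for Mrps18c and -0.06 for Mrpl58. Without mice 131 and 11 the tissue value of Mrpl10 turned to 0.04 and the fat median by genotype was 0.159, with 0 genes called. RLE and upper quartile scaling and, with the mouse as replicate block in the paired tissues, the blocked fit gave 66 and 2 as well. In these fits 32.8 to 36.3% of all genes were higher and 43.0 to 47.1% lower. Tested against a fold of 1.5, 1 gene was lower. Leaving out each mouse in turn gave 66 to 70 genes higher and 2 to 4 lower, with medians of 0.854 to 0.960. Of all genes, 33.9 to 37.2% were higher and 40.9 to 44.1% lower in those fits. The medians by genotype ranged from -0.057 to 0.047 in muscle, -0.062 to 0.074 in fat and -0.069 to 0.093 for their difference. In fat, DESeq2 without mouse 138 called 1 gene lower. With the longest transcript as length the median levels were 14.1 CPM per kilobase in muscle and 8.19 in fat. The cause of these changes was not tested beyond the settings' own construction. Levels near 1 CPM, as of Mrpl53, rest on few counts.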
